A study of Rattus norvegicus with 11 samples.

Results

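The miR-216 and miR-217 microRNAs were followed in rat pancreatic islets across 11 miRNA arrays. Members were the miRNA names on the arrays with the stem miR-216a, miR-216b or miR-217, with any arm suffix and no star names. This rule found 4 names of the 687 on the arrays, namely rno-miR-216a, rno-miR-216b-5p, rno-miR-216b-3p and rno-miR-217 (the prefix marks the rat and is left out from here on). Only miR-216a and miR-217 were among the 350 names of the smaller (first) array design, whereas all 4 were among the 677 names of the larger (second) design.

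The arrays came from female Sprague Dawley offspring of fathers that had eaten either a high-fat pellet diet (43% as fat, the HFD group, 5 samples) or standard chow (9% as fat, the Control group, 6 samples). All fathers were mated at 15 weeks of age with females on normal chow, all daughters were weaned onto standard chow at 3 weeks, and all islets were harvested at 13 weeks, by which age the daughters had undergone glucose tolerance testing (6 and 12 weeks) and insulin tolerance testing (11 weeks). No daughter ate the high-fat diet, and no genotype other than the strain was named. The 8 arrays of the first design held 4 Control and 4 HFD samples, and the 3 arrays of the second held 2 Control samples and 1 HFD sample. The labels number the samples but do not say which fathers or litters they came from, so each p-value measures only the spread between these samples.

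The pancreas is mostly acinar tissue, whose cells make and secrete digestive enzymes, while the islets scattered through it hold the hormone-secreting endocrine cells. miR-216a, miR-216b and miR-217 are known as miRNAs of acinar cells, where they are far more abundant than in islets, and islets released from the pancreas by digestion can carry acinar cells along. A mature miRNA recognises its targets mainly through its seed, a short stretch near its 5′ end. In bulk RNA such as this, fewer cells of a type and less miRNA per cell cannot be told apart.

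The mature sequences are shown because they show how far the members share a seed. They are RefSeq's on build GRCr8, read 5′ to 3′, with the seed (bases 2 to 8) in capitals. All 4 names were matched, and for miR-216a and miR-217, whose array names carry no arm, the 5p entry was taken.
rno-miR-216a-5p: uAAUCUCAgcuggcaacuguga
rno-miR-216b-5p: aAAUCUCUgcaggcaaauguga
rno-miR-216b-3p: cACACUUAcuuguagagauu
rno-miR-217-5p: uACUGCAUcaggaacugacugg

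miR-216a-5p and miR-216b-5p were identical at 18 of 22 positions and at 6 of the 7 seed positions. Counted from 1 at the 5′ end of miR-216a-5p, the differences to miR-216b-5p were U1A, A8U, U11A and C17A, of which only A8U lies in the seed. miR-217-5p was identical to miR-216a-5p at 6 of 22 positions and at 2 of the 7 seed positions. Each of the 4 seeds occurred in 1 of the 724 mature rat miRNAs in the RefSeq table, so no members shared a full seed.

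The 3 hairpins lie in a row on the plus strand of chromosome 14. On GRCr8, mature miR-216b-5p is at chr14:106714045-106714066, miR-216b-3p at chr14:106714084-106714103, miR-216a-5p at chr14:106725095-106725116 and miR-217-5p at chr14:106732516-106732537. The hairpins of Mir216b, Mir216a and Mir217 span 18564 bases, with 10949 bases between the hairpins of Mir216b and Mir216a and 7302 between those of Mir216a and Mir217. The uncharacterised lncRNA genes LOC102550402 and LOC102550342 lie within or overlap this span, and LOC120096708, also a lncRNA gene, precedes it.

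The islet label was checked against endocrine miRNAs. miR-375, the best-known islet miRNA, stood at 3717 to 5444 on the 8 arrays of the first design, and miR-7a, enriched in endocrine cells, at 6186 to 8923. These values are scaled signals, the summed probe intensity of a miRNA divided by each array's 75th percentile over 85 miRNAs detected on all 11 arrays and brought back to a common level. On each array of the first design this percentile fell on miR-26b, so the scaling there was a scaling to miR-26b. Of the 340 names on both designs, 152 were called detected by the scanner software on at least 5 arrays and were tested. miR-216a was tested, and miR-217 was not because it was detected on only 4 arrays. The first design's arrays stood in slide rows 1 and 2, each row with 2 Control and 2 HFD samples. HFD 653 stood apart on the first design, with a spread of negative-control spots of 38.2 intensity units against 6.38 to 7.53 on the other 7 arrays.

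miR-216a, which has the same probes on both designs, was detected on all 11 arrays. Its scaled signal in Control 602, 613, 615 and 639 was 617.7, 426.9, 88.7 and 21.0. In HFD 603, 607, 644 and 653 it was 665.9, 302.1, 106.0 and 255.6. Both groups thus held arrays with high and with low signal, the Control group held the lowest, and the groups overlapped. On the second design the scaled signal was 340.9 in Control 635, 282.3 in Control 652 and 334.1 in HFD 640. These 3 arrays differed by 1.21-fold, against a 31.8-fold range among the 8 arrays of the first design.

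**Figure D1:**
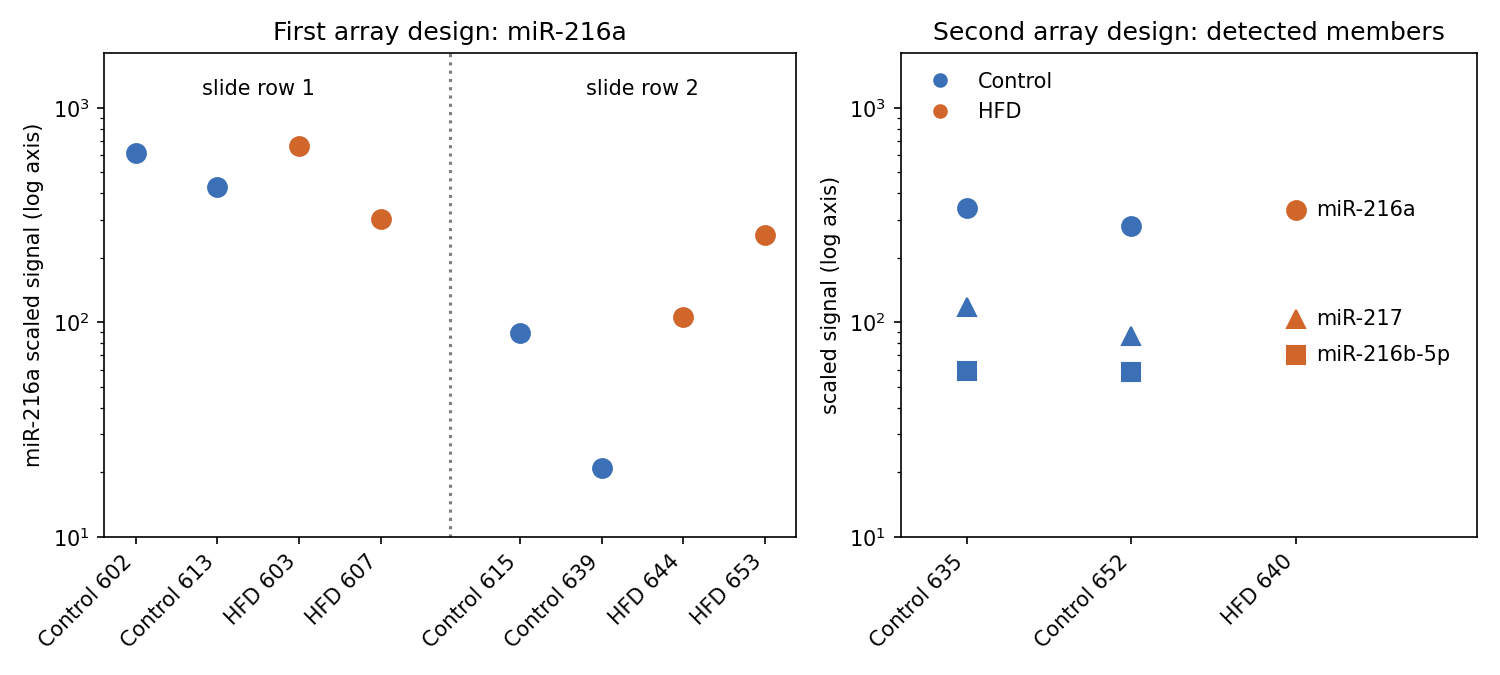
Scaled signal (log axis) of miR-216a on the 8 arrays of the first design and of the members detected on the 3 arrays of the second, 1 point per array, coloured by diet group, with the first design split by slide row. On the first design the points run from 21.0 (Control 639) to 665.9 (HFD 603) and the diet groups overlap, while each miRNA of the second design varies little; levels of different miRNAs come from different probes and cannot be compared.

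Replicate spots within an array give the technical error of its reading only, not the spread between samples or their handling. The standard error of the miR-216a signal from its replicate spots was 1.82% to 11.95% on the first design, with a median of 4.55%, and 1.21% to 1.70% on the second. In log2 units the largest of these was 0.17. This error was taken over all spots, whereas the scaled signals leave outlier spots out. On Control 602 the unscaled miR-216a sum was 416.8 with all spots and 461.1 without outlier spots. No spot of a member was saturated.

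Among the 152 tested miRNAs, miR-216a had the largest spread within the diet groups on the first design, with a pooled standard deviation of 1.76 on the log2 scale against a median of 0.33. Its range of 4.99 log2 units was also the largest, against a median of 1.0, and the next largest was 4.35, of miR-150, a lymphocyte miRNA. The range of miR-216a was 1.28 to 1.83 log2 units in the 3 alternatives that add 50 to the signal (normexp, RMA-like and the deposited tables), and 2.91 without Control 639. Among the 85 miRNAs detected on all arrays its range was again the largest, and the next largest was 2.17. When the slide row was taken out as well, the standard deviation of miR-216a was 0.97 and it ranked 4 of 152.

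**Figure D2:**
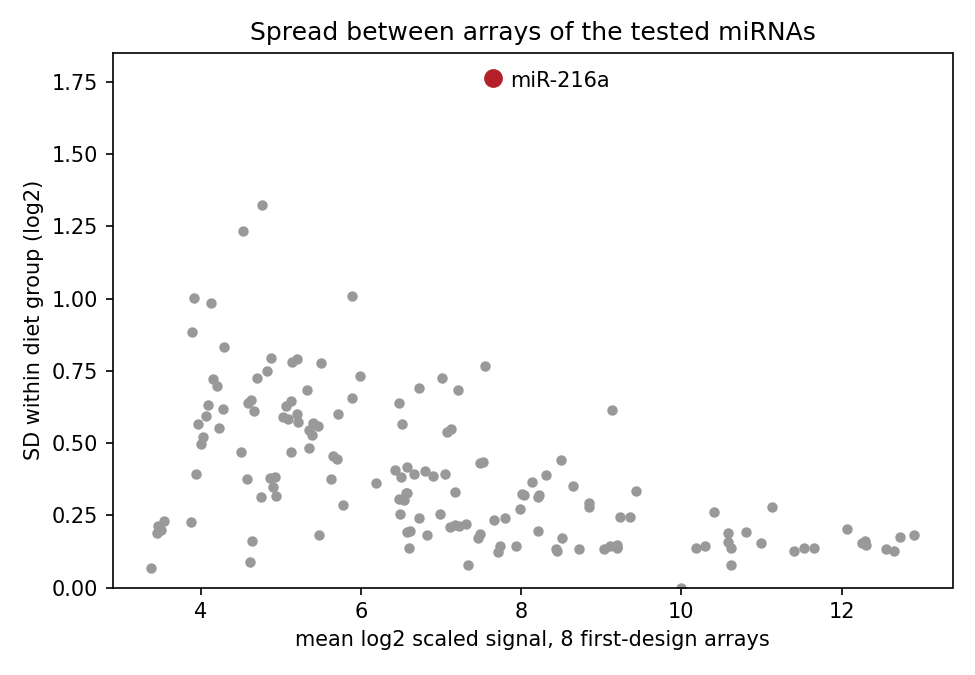
Pooled standard deviation within diet group (log2) against mean log2 scaled signal for the 152 tested miRNAs over the 8 arrays of the first design, 1 point per miRNA. miR-216a lies highest at 1.76, against a median of 0.33; the point at a standard deviation of 0 is miR-26b, on which the scaling percentile fell.

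The first comparison asked whether the fathers' diet went with the level of the acinar miRNAs in the daughters' islets. On the first design miR-216a was 7.22 ± 2.24 log2 units in Control and 8.09 ± 1.09 in HFD islets (SD, n = 4 each). Over all 11 arrays, with array design as a block, HFD minus Control was 0.68 ± 0.84 (SE) on the log2 scale, a fold of 1.60 with a 95% interval of 0.437 to 5.86. The limma adjusted p over 152 miRNAs was 0.987, and an exact two-sided permutation test within array designs (210 splits) gave p = 0.538. No difference between the diet groups was detectable at this spread, and the interval leaves room for a fall to 0.437-fold as well as for a 5.86-fold rise. Of all 152 miRNAs, 0 (0%) passed an adjusted p of 0.05 in limma and 3 (1.97%) had an unadjusted p below it, and the diet groups of the first design were without overlap in 2 (1.32%). The median difference over the 152 miRNAs was 0.066, and 108 were above 0. The difference of miR-216a was the 4th largest and its standard error the largest, 0.84 against a median of 0.18.

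The difference rested on a few arrays. Without Control 639 it was −0.02 ± 0.61, without HFD 603 it was 0.35, without Control 602 it was 1.15 and without Control 613 it was 1.02 on the log2 scale. It was 0.14 with normexp background correction, 0.03 with an RMA-like summary and 0.27 in the deposited tables. With slide row added as a block it was 0.69 ± 0.57, with a limma adjusted p of 0.990 and an exact permutation p of 0.389 (72 splits). Within row 1 of the first design it was −0.20 ± 0.50 (limma adjusted p = 0.937). Within row 2 it was 1.93 ± 0.98 (limma adjusted p = 0.776), with 2 arrays per diet group in each row. The interaction of diet and row was −2.13 ± 1.17 (limma adjusted p = 0.848), so a different diet difference in the rows was not shown. The difference was 0.87 ± 1.11 on the first design alone, and the interaction of diet and array design was −0.76 ± 2.04 (limma adjusted p = 0.996).

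**Figure D3:**
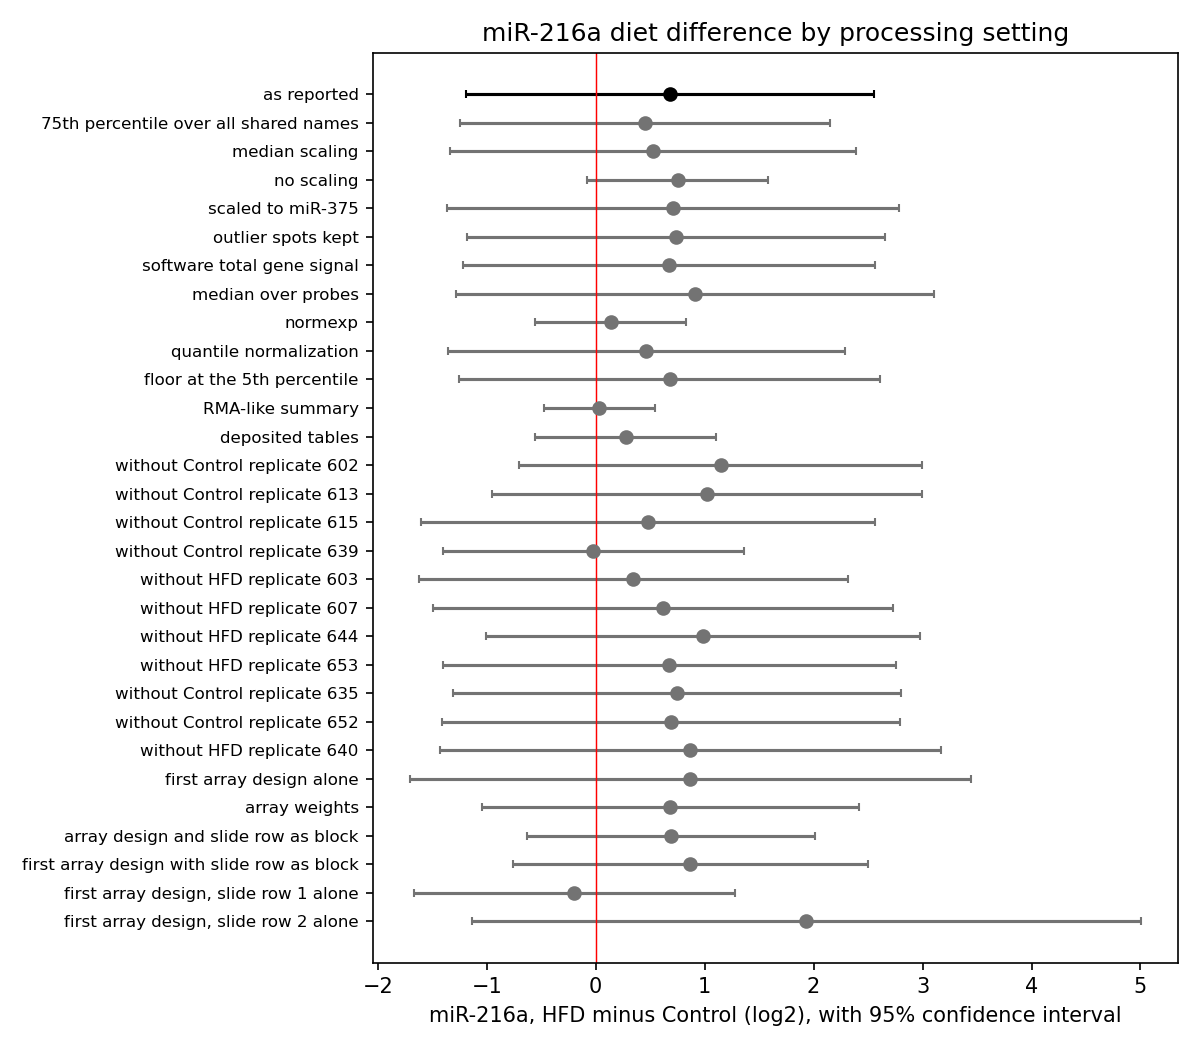
HFD minus Control for miR-216a (log2), 1 point per processing alternative or left-out array with its 95% interval, and a line at 0. The value as reported is 0.68 with an interval from −1.19 to 2.55; the points run from −0.20 (slide row 1 alone) to 1.93 (slide row 2 alone).

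The scaled signal of miR-216a was higher on each array of slide row 1 than on any of row 2 of the first design, a comparison added after the values were seen. The 4 arrays of row 1 (Control 602 and 613, HFD 603 and 607) stood at 302.1 to 665.9, with a mean of 8.91 log2 units, and the 4 arrays of row 2 (Control 615 and 639, HFD 644 and 653) at 21.0 to 255.6, with a mean of 6.40. The rows did not overlap, with 302.1 (HFD 607) as the lowest scaled signal of row 1 and 255.6 (HFD 653) as the highest of row 2. Rows were without overlap in 17 of the 152 miRNAs (11.2%), and in 9 (5.92%) row 1 was the higher. Row 1 minus row 2 was 2.51 ± 0.68 (95% interval 0.88 to 4.14), a fold of 5.70, and its limma adjusted p of 0.256 did not pass 0.05. In the deposited tables, which add 50 before the log, the difference was 1.19 with a limma adjusted p of 0.021. It was 0.92 (adjusted p = 0.999 in limma) with normexp and 0.81 (adjusted p = 0.061 in limma) with the RMA-like summary. As scaled here, no miRNA passed it (0 of 152, 0%), while 22 (14.5%) had an unadjusted p below 0.05. The difference was the largest of the 152, with 1.01 for miR-193 the next and a median of −0.05. Row 1 carried the 4 lowest sample numbers and row 2 the 4 highest, so slide row and the order of the sample numbers cannot be told apart.

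Summed marker levels of other cells overlapped between the rows, as sums in which the brightest miRNAs of a list weigh most. Among tested list members, miR-15b (red blood cell list) was higher on each array of row 1. Its lowest value there was 7.49 log2 units, against 7.38 as the highest of row 2. miR-183 (endocrine list) was lower on each array of row 1, with row 1 minus row 2 at −0.39 (limma adjusted p = 0.256). The other tested members of these lists overlapped between the rows. Over the 9 endocrine miRNAs of the list the summed scaled signal was 11464 to 14682 in row 1 and 13851 to 16296 in row 2. It was 61.7 to 399.4 against 56.6 to 124.9 for 5 leukocyte miRNAs, 556 to 797 against 440 to 657 for 5 endothelial ones, and 2216 to 2547 against 1851 to 2471 for 9 of fibroblasts and smooth muscle. It was 9257 to 10753 against 10051 to 12157 for 5 of ductal and other epithelium and 1374 to 1727 against 1215 to 1526 for 4 of red blood cells. By list, 7, 3, 2, 7, 5 and 2 miRNAs were tested, and miR-184, miR-142-5p, miR-126*, miR-221, miR-222, miR-145, miR-199a-5p, miR-451 and miR-144 were not detected on at least 5 arrays. miR-211 (endocrine list) and miR-142-3p (leukocyte list) are also part of the sums but were not among the tested miRNAs. The red blood cell list held miR-451, miR-144, miR-16 and miR-15b. Its sum therefore rests on miR-16 and miR-15b and is not read as a level of red blood cells. The part of these cells in the difference of miR-216a was not tested.

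The miR-216a probes showed the row difference before any scaling. The array carried the same 4 probes for it on both designs, with 5 spots each. The readings given here are means of all 5 spots, outlier spots included. The brightest, A_26_P00001487, read 181.3 to 267.0 in row 1 and 16.5 to 103.3 in row 2 as background-subtracted intensity. The next, A_26_P00001486, read 87.5 to 122.3 and 3.90 to 48.1, and A_26_P00001485 read 30.1 to 43.7 and −0.12 to 18.1. For these 3 probes all 20 spots of row 1 were well above background, against 16, 9 and 0 of 20 in row 2. These counts do not follow the signal alone. On HFD 653, the array with the widest negative controls, 0 of 5 spots of A_26_P00001486 were flagged at a mean of 48.1. On HFD 644 all 5 were flagged at 32.3. The 4th probe, A_26_P00001484, was at or below −0.03 on every first-design array, with 0 of 40 spots well above background.

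**Figure D4:**
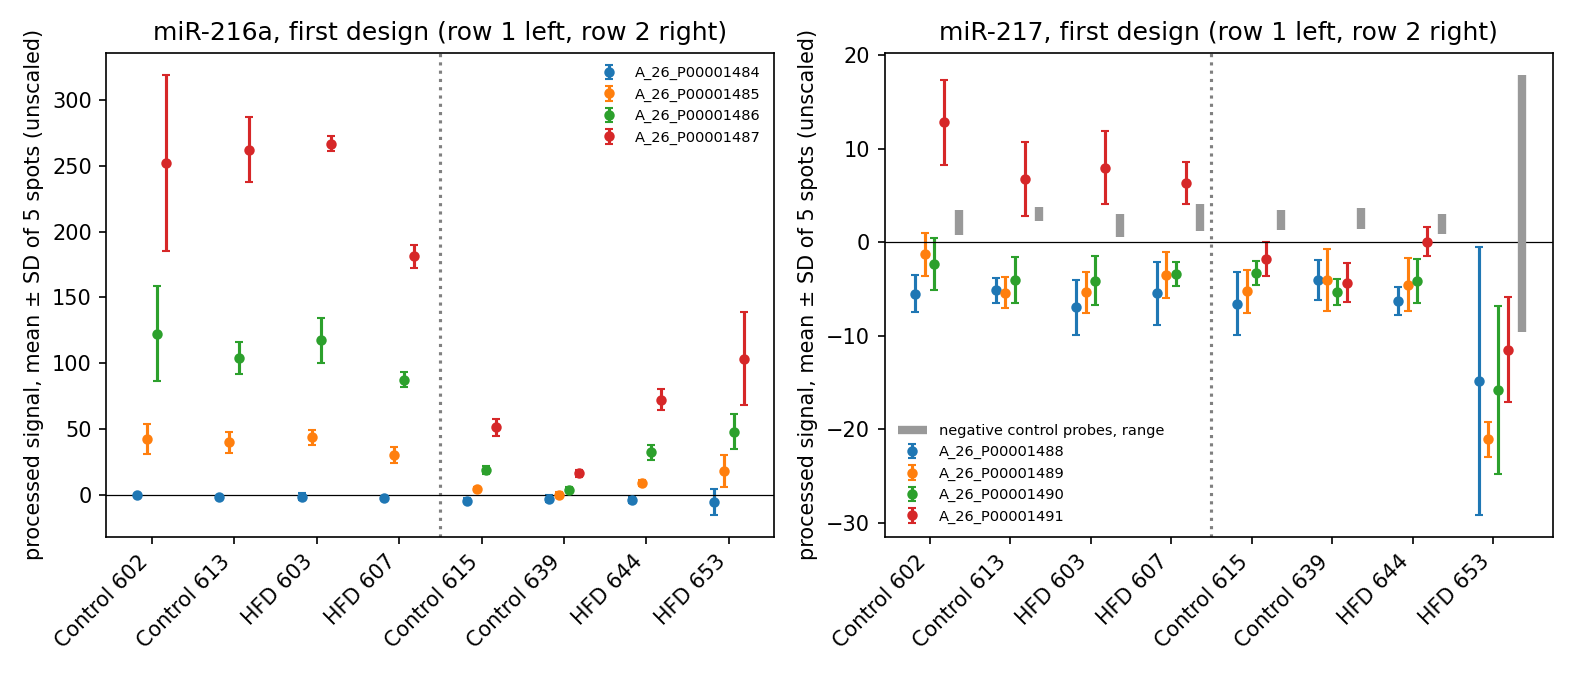
Mean background-subtracted intensity of each miR-216a and miR-217 probe on the 8 arrays of the first design, by slide row, with bars for the SD of its 5 spots and grey bars for the range of the negative-control probes. The 3 responding miR-216a probes lie higher on each array of row 1 than on any array of row 2, and the miR-217 probes reach 12.8 at most.

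On the second design row 1 held Control 635 and HFD 640 and row 2 held Control 652, too few arrays for a row comparison. There the order of the arrays turned with the scaling, since the unscaled miR-216a intensity was 341.0, 704.0 and 655.2 in Control 635, HFD 640 and Control 652 and the scaled signal 340.9, 334.1 and 282.3.

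miR-217, the neighbour of miR-216a on the chromosome, was called detected on 1 of 4 Control arrays of the first design (Control 602) and on 0 of 4 HFD arrays. Its probe sum, as scaled signal without a floor, was 4.91, −8.24, −21.5 and −20.0 in Control 602, 613, 615 and 639 and −13.2, −6.09, −13.2 and −108.3 in HFD 603, 607, 644 and 653. All of these lay under the floor of 10.3, the 1st percentile of detected signals, so no fold between the diets can be given there. The lowest, HFD 653, was the array with the widest negative controls.

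On the second design miR-217 was detected on all 3 arrays, at 118.2 in Control 635, 86.4 in Control 652 and 103.8 in HFD 640. The HFD array lay between the Control arrays. The 2 designs have no miR-217 probe in common (4 probes on the first, 2 on the second), so the levels on them cannot be compared. In a fit without the detection filter, HFD minus Control was 0.01 ± 0.07 (limma adjusted p = 1, exact permutation p = 1), but the 8 arrays of the first design enter that fit tied at the floor, with no measured value. They draw the difference toward 0 and narrow its error, so neither the error nor the p-values measure the spread of miR-217 between samples. Of the 340 miRNAs in that fit, 0 (0%) passed an adjusted p of 0.05 and 2 (0.588%) had an unadjusted p below it.

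Of the 4 first-design probes of miR-217, only A_26_P00001491 read above 0, a probe singled out after its values were seen. It read 12.8, 6.78, 7.97 and 6.34 on Control 602, Control 613, HFD 603 and HFD 607, each above the highest of the 7 negative-control probes there (3.45, 3.81, 3.00 and 4.07). On Control 615, Control 639, HFD 644 and HFD 653 it read −1.76, −4.35, 0.067 and −11.5, none above the negative controls. The arrays with the higher reading were those of row 1, as for miR-216a, though only 2 of its 40 spots were called well above background.

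miR-216b was measured on the second design only. Its 5p strand was detected on all 3 arrays, at 59.5 in Control 635, 58.4 in Control 652 and 70.2 in HFD 640, so the HFD array was the highest. Of the 5 spots of its brightest probe, 0, 4 and 5 were well above background on these arrays. On Control 635 no spot of its other probes was either. The software's own unscaled total for the 5p strand was 9.24, 42.2 and 45.9, so the closeness of the Control arrays rests on the probe sum and scaling used here. The 3p strand, the other arm of the hairpin, read 3.17, 1.44 and 4.60 and was detected on 0 of 3 arrays. HFD 640 minus the Control mean was 0.11 for miR-216a, 0.25 for miR-216b-5p and 0.04 for miR-217 on the log2 scale. The Control arrays differed from each other by 0.27, 0.03 and 0.45, and with 1 HFD array there is no test. Control 652 was the lowest array for all 3 as scaled signal, whereas in unscaled intensity Control 635 was the lowest for all 3. Unscaled, miR-216b-5p read 59.6, 135 and 148 and miR-217 118, 201 and 219 in Control 635, Control 652 and HFD 640.

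miR-148a, the remaining miRNA of the acinar list, was not on the first design, and 2 relatives of its seed family were read instead. miR-148b-3p was at 12.5 to 101.8 on the first design, with HFD minus Control of −0.51 ± 0.49. miR-152, which has the same family seed, was at 77.6 to 111.9, with a difference of 0.05 ± 0.12 (limma adjusted p = 0.987 for each). The 12.5 of miR-148b-3p was that of HFD 653 alone, where it was not detected and lay close to the floor. The other HFD arrays of the first design stood at 53.4 to 83.5 for it, so its negative difference leans on that array. The diet difference of miR-375 was −0.03 ± 0.12 and that of miR-7a 0.05 ± 0.11, so the endocrine miRNAs differed by less than the spread between arrays.

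Across the 8 arrays of the first design, 6 relations of miR-216a to other measures were computed. For miR-375 Pearson's r was −0.82 (exact permutation p = 0.012, adjusted 0.072) and Spearman's rho −0.83 (exact permutation p = 0.015, adjusted 0.092). Centred within slide rows r was −0.82 (exact permutation p = 0.0087, adjusted 0.052). None of these passed 0.05 after adjustment, and without Control 639 and Control 615, the arrays farthest from the median of miR-216a, r was −0.53. Over 12 processing alternatives r ran from −0.82 to −0.43. The r to miR-217 without a floor was 0.09 (exact permutation p = 0.863) and rho 0.67 (exact permutation p = 0.083, adjusted 0.249). This r was −0.63 within rows, 0.26 without Control 639 and 615 and 0.73 without HFD 653. The r to the mean of the fibroblast and smooth muscle list was 0.73 (exact permutation p = 0.044, adjusted 0.123) and rho 0.55 (exact permutation p = 0.171, adjusted 0.256), with r at 0.50 within rows and 0.76 without those 2 arrays. For the endothelial mean r was 0.69 (exact permutation p = 0.061, adjusted 0.123) and rho 0.48 (exact permutation p = 0.243, adjusted 0.292), with r at 0.58 within rows and 0.65 without them. For the leukocyte mean r was 0.53 (exact permutation p = 0.182, adjusted 0.273) and rho 0.57 (exact permutation p = 0.151, adjusted 0.256), with r at 0.46 within rows and also 0.46 without them. For the array's 75th percentile r was −0.37 (exact permutation p = 0.371, adjusted 0.445) and rho −0.40 (exact permutation p = 0.327, adjusted 0.327), with r at −0.57 within rows and −0.56 without them. The scaled miR-216a signal is divided by that same percentile, which favours a negative r, so this relation cannot be read as a test. None of the 6 relations was therefore past 0.05 after adjustment.

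The miRNAs whose pattern over these 8 arrays was most like that of miR-216a were taken by Pearson's r over 150 miRNAs, as a description without a test, since the arrays share slide row and scaling. miR-193 came first at r = 0.96, then miR-34a at 0.91, miR-497 at 0.84, miR-195 at 0.83 and miR-100 at 0.78. miR-34a is a target of p53, and miR-497 and miR-195 come from the same locus and the same seed family. The lowest were miR-375 at −0.82, miR-183, of a cluster expressed in sensory and endocrine cells, at −0.81, and miR-301a at −0.79. Centred within rows, miR-193 and miR-34a kept an r of 0.88 and 0.91, and miR-497, miR-195 and miR-183 were at 0.54, 0.49 and −0.41. miR-193 and miR-34a ranged over 1.70 and 1.86 log2 units, against 4.99 for miR-216a. Over 13 processing settings r ran from 0.79 to 0.98 for miR-193, from 0.89 to 0.97 for miR-34a and from 0.14 to 0.88 for miR-100. It ran from 0.50 to 0.93 for miR-497, from 0.60 to 0.92 for miR-195 and from −0.81 to −0.17 (scaled to miR-375) for miR-183. That of miR-301a ran from −0.82 to 0.0044, where scaling to miR-375 gave the only value above 0.

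**Figure D5:**
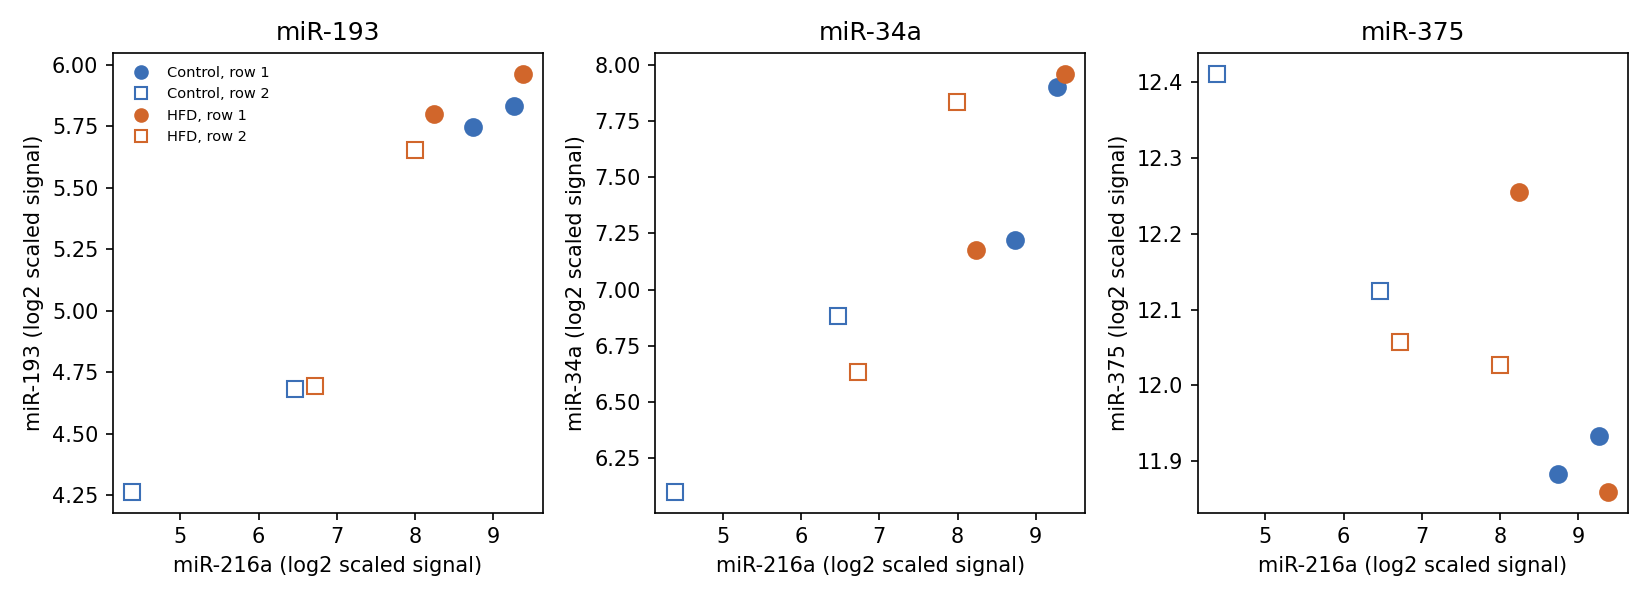
Log2 scaled signal of miR-193, miR-34a and miR-375, each plotted against that of miR-216a, with 1 point per array of the first design, colours for diet group and filled or open symbols for slide row 1 or 2. miR-193 (r = 0.96) is high where miR-216a is high, and miR-375 (r = −0.82) is low there.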

How the data were processed

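Islet total RNA (100 ng per sample) carried a Cy3 label, per the labels' protocols, and each 1-colour Agilent miRNA array held 1 sample. The deposited intensity per spot is background-subtracted by Agilent Feature Extraction (10.5.1.1 for the first design, 10.7.3.1 for the second) without normalisation across arrays (per the file headers). Other deposited columns flag detected miRNAs, spots well above background and saturated spots. The authors' deposited log2 tables equal log2 of the total intensity plus 50 on the first design (340 of 340 values within 0.01 on each array) and log2 of the total where detected on the second (141 of 144, 185 of 187 and 216 of 218 for Control 635, Control 652 and HFD 640). The median of each Control column was 5.70 (602), 5.70 (613), 5.68 (615), 5.69 (639), 6.59 (635) or 6.89 (652), and that of each HFD column 5.69 (603), 5.73 (607), 5.71 (644), 5.83 (653) or 6.52 (640). They are uncentred levels rather than ratios and so carry no direction. The submitters' processing notes list RMA and Partek, whose role is not given in the sources used here.

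Probe means without outlier spots were summed per miRNA, scaled to the 75th percentile, floored at 10.3 (the 1st percentile of detected signals) and taken to log2 (Python 3.11.15, scipy 1.17.1). Differences were fitted by limma (version 3.58.1, R 4.3.3), the array design being a block, over the 152 miRNAs detected on at least 5 arrays, with Benjamini-Hochberg adjustment, and the fit was tested on simulated data. Normexp (offset 50) used the median signal and median background, since no mean signal was given. As miR-217 lay under the floor on the first design, its relation to miR-216a used unfloored signal. Slide row as a block, the comparison of slide rows and the unfloored miR-217 signal were added after seeing the data. The other miRNAs named are the members, 5 most and 3 least like miR-216a, and the cell type lists. Members and lists were chosen with earlier results of these data known. The number of arrays limits the precision.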

Additional observations from a re-analysis of the deposited data

Results flagged for a closer look

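In the Control group of the first design, miR-148b-3p on Control 602 lay far below the other arrays, with a gap of 0.837 of the group's whole range. miR-217 as scaled signal without a floor was far lower on HFD 653 than on the other HFD arrays of the first design, with a gap of 0.930 of the range. HFD 653 also had the widest negative controls of that design. Of 40 groups of 4 arrays examined in this way, 2 had such a gap, and chance alone gives about 2. miR-216b-5p, which only the second design measures and no test uses, stood at 70.2 on HFD 640, above 59.5 and 58.4 on the Control arrays. On Control 635 no spot of miR-216b-5p was called well above background.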

How the results depend on the processing

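The diet difference of miR-216a ran from −0.20 (slide row 1 alone) to 1.93 (slide row 2 alone) over the processing alternatives, and its limma adjusted p from 0.776 to 1. Leaving out 1 array at a time gave −0.023 (without Control 639) to 1.15 (without Control 602). That of miR-217 turned negative with the 75th percentile over all shared names (−0.0048), median scaling (−0.030), quantile normalisation (−0.021), the RMA-like summary (−0.028) and the deposited tables (−0.026), and ran from −0.037 (without Control 652) to 0.053 with 1 array left out. Without scaling, 1 miRNA passed the adjusted p, against 0 otherwise. The range of miR-216a on the first design shrank to 1.75 with normexp, 1.28 after RMA-like summarisation and 1.83 in the deposited tables, all with an offset of 50 on this design, and was 2.91 (without Control 639) to 4.99 with 1 array left out. The row difference was 0.81 after RMA-like summarisation (limma adjusted p = 0.061), 0.92 with normexp (limma adjusted p = 0.999), 1.19 in the deposited tables (limma adjusted p = 0.021) and 1.88 to 2.98 with 1 array left out (limma adjusted p 0.122 to 0.512). Under normexp the rows overlapped, with 9.13 as the lowest of row 1 and 9.42 as the highest of row 2. The r of miR-216a to miR-217 was −0.11 with the median over probes, −0.63 centred by row and 0.83 with quantile normalisation (exact permutation p = 0.0096), and ran from −0.038 (without Control 602) to 0.73 (without HFD 653). Except where stated, the cause of these changes was not tested. No paired analysis was possible because the groups share no replicate numbers. Low signal limits miR-217, miR-216b-3p and, on Control 635, miR-216b-5p. Of these, miR-217 lies under the floor on each first-design array.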
